A study of Mus musculus with 6 samples.

Results

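Dendritic cell receptors, structural and maturation genes and the 3 Batf transcription factors were examined in RNA from the lung mesenchyme of Yeti+/- and wild-type adult mice. The 10 genes, Flt3, Xcr1, Zbtb46, Ccr7, Fscn1, Siglech, Cd209a, Batf, Batf2 and Batf3, were taken by symbol from the 29322 genes of the authors' deposited table, where each symbol had 1 row. There were 3 libraries of adult Yeti+/- mice, titled Yeti, and 3 of adult wild-type mice, titled Yeti Control. Yeti is an allele of Ifng, the interferon-gamma gene, that is described as gain of function and was carried in the heterozygous state. Cells were sorted as negative for CD45, CD31 and Epcam, proteins that mark leukocytes, endothelium and epithelium, and for the dye DAPI that stains dead cells. The labels also record tamoxifen injection for the mice of both groups, with no inducible allele named, and name cultured cells as the source of the RNA. Nothing states whether each library came from 1 animal or from a pool, so the p-values measure only the spread between these libraries. The authors' deposited table gives 1 mean, 1 log2 fold change and 1 standard error (SE) per gene and no value per library, so levels below are fitted group levels in normalized counts, derived from the mean and the fold change.

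Dendritic cells are leukocytes that take up antigen and present it to T cells. Type 1 conventional dendritic cells carry the chemokine receptor Xcr1 and depend on Batf3, while type 2 and monocyte-derived cells can carry the lectin Cd209a, and plasmacytoid cells carry Siglech. On maturation dendritic cells gain Ccr7, which guides them to lymph nodes, and the actin bundler Fscn1. Batf, Batf2 and Batf3 are small basic leucine zipper (bZIP) proteins that bind DNA together with Jun proteins and with interferon regulatory factors such as Irf4 and Irf8. Batf2 is known as an interferon-induced gene in macrophages and in other cell types, and Batf is used by lymphocytes.

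Of the 10 genes, 3 were higher in Yeti. Batf2 rose 13.5-fold, Fscn1 3.0-fold and Batf3 2.94-fold, whereas Batf and the receptors of dendritic cell subsets did not pass the test. The authors' deposited table thus had 3 of the 10 genes higher and 0 lower at an adjusted p under 0.05 (DESeq2 Wald test, Benjamini-Hochberg), 3 higher and 0 lower also by an unadjusted p under 0.05. Of all 20212 genes with an adjusted p by the authors' deposited table, 2.84% passed, 1.85% as higher and 0.994% as lower. The share of all genes with an unadjusted p under 0.05 was not computed. Counts at that threshold, here and below, therefore have no background to be set against. By the unadjusted Wald p, Cd209a (0.0886) ranked 2545th of the 20212 genes. All 10 genes had an adjusted p, so no low-value filter removed any. Their median log2 fold change was 0.31, against -0.00092 for all tested genes. The 10 genes were put together with results of these data known, so this share is not independent evidence about dendritic cell genes.

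**Figure D1:**
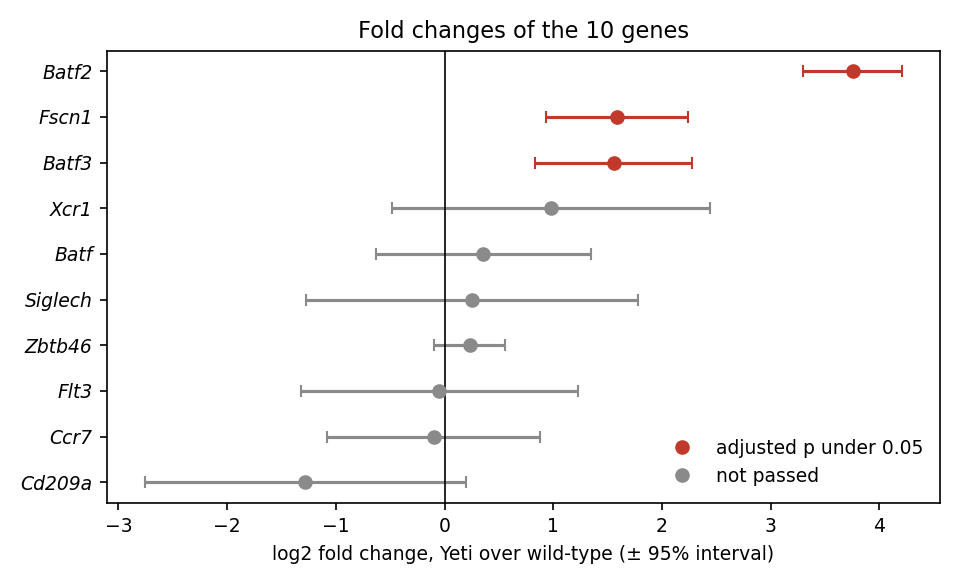
Log2 fold change of Yeti over wild-type (horizontal axis) for each of the 10 genes, with 95% intervals from the authors' standard errors and 3 libraries per group; red marks an adjusted p under 0.05. Batf2 stands at 3.75, Fscn1 and Batf3 near 1.6, and the intervals of the other 7 genes include 0.

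The 3 Batf genes differ in size and lie on different chromosomes of GRCm38. Batf (ENSMUSG00000034266) spans 85686669 to 85709087 of chromosome 12, Batf2 (ENSMUSG00000039699) 6140983 to 6172476 of chromosome 19, and Batf3 (ENSMUSG00000026630) 191097847 to 191108945 of chromosome 1, all on the plus strand in GENCODE M21. The coding sequences of their transcripts numbered 201 in GENCODE M21 specify 125, 277 and 118 amino acids. The window of 75 coding bases in which Batf is most like the other 2 genes is shown because it holds the basic DNA-contacting signature that makes them 1 family, and because it bears on whether reads could be shared between them. Capitals mark the 41 bases that are the same in all 3, and each stretch lies within exon 2 (chr12:85689286-85689360, chr19:6166486-6166560 and chr1:191100746-191100820, plus strand, GENCODE M21 transcripts).
Batf: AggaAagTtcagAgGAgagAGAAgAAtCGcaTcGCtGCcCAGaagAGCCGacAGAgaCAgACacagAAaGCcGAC
Batf2: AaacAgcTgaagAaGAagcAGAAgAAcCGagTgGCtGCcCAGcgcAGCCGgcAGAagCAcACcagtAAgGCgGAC
Batf3: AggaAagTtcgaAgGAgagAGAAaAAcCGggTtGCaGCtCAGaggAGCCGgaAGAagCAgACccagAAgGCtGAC
In this stretch Batf and Batf3 shared 58 of 75 bases and 20 of the 25 encoded residues. Batf2 shared 13 of 25 residues with Batf and 15 of 25 with Batf3, so it is the more distant member by this measure. The longest identical run in the coding sequences was 14 bases for Batf with Batf2 and 11 bases for Batf3 with either. No run of 50 bases from Batf or Batf3 transcripts occurred in the transcripts of any other gene. Batf2 shares 51 exonic bases with Arl2 on the opposite strand, out of 2522, and the strand setting of the read counting is not given in the sources used here.

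Batf2 had the largest change of the 10 genes. Its fitted level was 58.9 normalized counts in the wild-type libraries and 794 in the Yeti libraries, a log2 fold change of 3.75 ± 0.23 (SE) per the authors' deposited table with an adjusted p of 2.82e-55. The 95% interval of the fold ran from 9.84 to 18.5. Among the tested genes of the authors' deposited table it ranked 4th by p-value and 29th by fold change. The overlapping gene Arl2 had a log2 fold change of 0.24 from a mean of 574 normalized counts per the authors' deposited table.

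Batf3, the factor on which type 1 dendritic cells depend, also rose. Its fitted level went from 59.0 to 174 normalized counts, with a log2 fold change of 1.56 ± 0.37 (SE) and an adjusted p of 0.00186 per the authors' deposited table. In wild-type Batf2 and Batf3 thus had nearly the same fitted count, and in Yeti that of Batf2 was the larger. Batf, the founding member of the family, had fitted levels of 64.5 and 82.6 normalized counts. Its log2 fold change was 0.36 ± 0.50 (SE) per the authors' deposited table, with an adjusted p of 0.999, and its 95% interval ran from a fold of 0.646 to one of 2.54, so a rise of that size is not excluded.

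The differences between the family members were compared with the widest 95% interval that any covariance between the genes allows, since the covariance is unknown without values per library. Batf2 exceeded Batf3 by 2.20 on the log2 fold change scale (interval 1.02 to 3.37) and Batf by 3.40 (1.95 to 4.84). Batf3 exceeded Batf by 1.20, with an interval of -0.51 to 2.91 that includes 0, so the data do not separate these 2.

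Fscn1 encodes fascin, which bundles actin in the protrusions of mature dendritic cells and is also made by other cells, endothelium among them. Fscn1 (ENSMUSG00000029581, chromosome 5, bases 142960343 to 142973185, plus strand) was fitted at 965 normalized counts in the wild-type libraries and 2896 in the Yeti libraries. The log2 fold change was 1.59 ± 0.33 (SE) per the authors' deposited table, adjusted p = 0.000217, and the 95% interval of the fold ran from 1.91 to 4.73. Tested against a log2 fold change of at least 0.5 in place of any change, Batf2 still passed (adjusted p = 4.74e-41), while Fscn1 (0.118) and Batf3 (0.308) did not.

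The promoters of Batf3 and Fscn1 are shown because both genes rose by nearly the same fold. RefSeq promoters (GRCm38.p6, 250 bases before to 50 after the RefSeq start) matched 8 of the 10 symbols, without Batf2 and Ccr7. The RefSeq start of Batf3 lies 567 bases inside the gene as GENCODE M21 bounds it, and that of Zbtb46 35038 bases inside, so these windows are not upstream of the coordinates given for those genes. They were searched on both strands for the GAS element TTCNNNGAA, for the interferon-response core GAAANNGAA, for the AP-1 site TGANTCA and for the cyclic AMP response element TGACGTCA. Capitals mark the matches, a GAS match in Batf3 (chr1:191098164-191098463, plus strand) and a cyclic AMP response element match in Fscn1 (chr5:142960105-142960404, plus strand).
Batf3: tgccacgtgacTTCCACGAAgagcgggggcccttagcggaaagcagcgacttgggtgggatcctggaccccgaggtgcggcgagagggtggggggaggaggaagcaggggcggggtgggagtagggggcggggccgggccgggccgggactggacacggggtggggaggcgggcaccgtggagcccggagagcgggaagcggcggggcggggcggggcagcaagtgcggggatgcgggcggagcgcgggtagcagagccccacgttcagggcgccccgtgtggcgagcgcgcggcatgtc
Fscn1: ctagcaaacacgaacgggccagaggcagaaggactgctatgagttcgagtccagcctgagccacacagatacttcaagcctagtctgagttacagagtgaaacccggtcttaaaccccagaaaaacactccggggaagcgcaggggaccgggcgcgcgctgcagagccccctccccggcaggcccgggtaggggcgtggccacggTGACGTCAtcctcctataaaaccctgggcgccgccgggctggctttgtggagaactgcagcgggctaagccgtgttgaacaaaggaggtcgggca
Counted from the RefSeq start, the Batf3 match lies at positions -239 to -231 and the Fscn1 match at -45 to -38. Of all 32851 promoters in the RefSeq set, 8.30% held the GAS letters, 8.56% the interferon-response core, 7.81% the AP-1 letters and 1.79% the cyclic AMP response element. Siglech, whose fold change did not pass, also held a GAS match, and Zbtb46 an AP-1 match that overlapped no other motif. The windows of Flt3, Xcr1, Cd209a and Batf held none of the 4 motifs. Such a match describes letters in a window and does not show that a factor is bound there.

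Zbtb46, a transcription factor of conventional dendritic cells that endothelium also expresses, was the most tightly measured of the 10. Zbtb46 (ENSMUSG00000027583, chromosome 2, bases 181387762 to 181459426, minus strand) had fitted levels of 326 normalized counts in the wild-type libraries and 382 in the Yeti libraries, a log2 fold change of 0.23 ± 0.17 (SE) per the authors' deposited table with an adjusted p of 0.876. Its interval ran from a fold of 0.935 to 1.47, so a change of 2-fold lies outside it.

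Ccr7 was abundant in both groups. Ccr7 (ENSMUSG00000037944, chromosome 11, bases 99144196 to 99155077, minus strand) was fitted at 1979 normalized counts in the wild-type libraries and 1845 in the Yeti libraries. Its log2 fold change was -0.10 ± 0.50 (SE) per the authors' deposited table, adjusted p = 0.999, with a 95% interval from a fold of 0.473 to 1.84. Besides mature dendritic cells, T and B lymphocytes carry this receptor.

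Genes that mark dendritic cell subsets did not pass, and their intervals were wide. Flt3, the receptor for the growth factor that dendritic cell progenitors need (ENSMUSG00000042817, chromosome 5, bases 147330741 to 147400489, minus strand), had fitted levels of 308 normalized counts in the wild-type libraries and 298 in the Yeti libraries. Its log2 fold change was -0.05 ± 0.65 (SE) per the authors' deposited table, with an interval from a fold of 0.400 to 2.34. Xcr1, the receptor of the chemokine Xcl1 on type 1 cells (ENSMUSG00000060509, chromosome 9, bases 123852315 to 123862029, minus strand), was the least abundant, with fitted levels of 14.4 and 28.3 normalized counts. A log2 fold change of 0.98 ± 0.74 (SE) and an adjusted p of 0.906 stand per the authors' deposited table for Xcr1, with an interval from a fold of 0.717 to 5.42. Siglech, a lectin of plasmacytoid cells (ENSMUSG00000051504, chromosome 7, bases 55768178 to 55778925, plus strand), had fitted levels of 41.9 and 49.97 normalized counts, with 0.25 ± 0.78 (SE) on the log2 scale per the authors' deposited table. Cd209a, a lectin of monocyte-derived and type 2 cells (ENSMUSG00000031494, chromosome 8, bases 3743397 to 3748984, minus strand), was the one with the lowest fold change. Its fitted levels were 127 normalized counts in the wild-type libraries and 52.3 in the Yeti libraries, with -1.28 ± 0.75 (SE) on the log2 scale and an adjusted p of 0.703 per the authors' deposited table. Although Cd209a belongs to a cluster of related lectin genes, no run of 50 bases of its transcripts occurred in another gene. Of the 50-base runs of Xcr1 transcripts 1.63% did, and of those of Siglech 0.389%.

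Per kilobase of exon, Ccr7 and Fscn1 led the order of levels. The mean over all libraries was 967 normalized counts per kb for Ccr7, 641 for Fscn1, 169 for Batf2, 72.8 for Batf3, 56.7 for Cd209a, 52.3 for Batf, 49.0 for Flt3, 41.6 for Zbtb46, 13.6 for Siglech and 4.79 for Xcr1. In wild-type, Ccr7 was above Fscn1 and Fscn1 above Batf2 by more than the summed spread between libraries of the 2 genes compared. Batf2, Batf3, Cd209a, Batf, Flt3 and Zbtb46, each against the next, did not differ beyond that spread in wild-type. In Yeti the order changed at the top, where Ccr7 and Fscn1 stood at 933 and 961 normalized counts per kb and did not differ beyond their spread. There Batf2 reached 315 normalized counts per kb, more than the spread above the 109 of Batf3. Batf3 in turn stood above Cd209a by more than the spread in Yeti, at 109 against 33.1 normalized counts per kb, while in wild-type its 37.0 lay below the 80.4 of Cd209a, within the spread. Siglech lay below Zbtb46 by more than the spread in both groups.

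**Figure D2:**
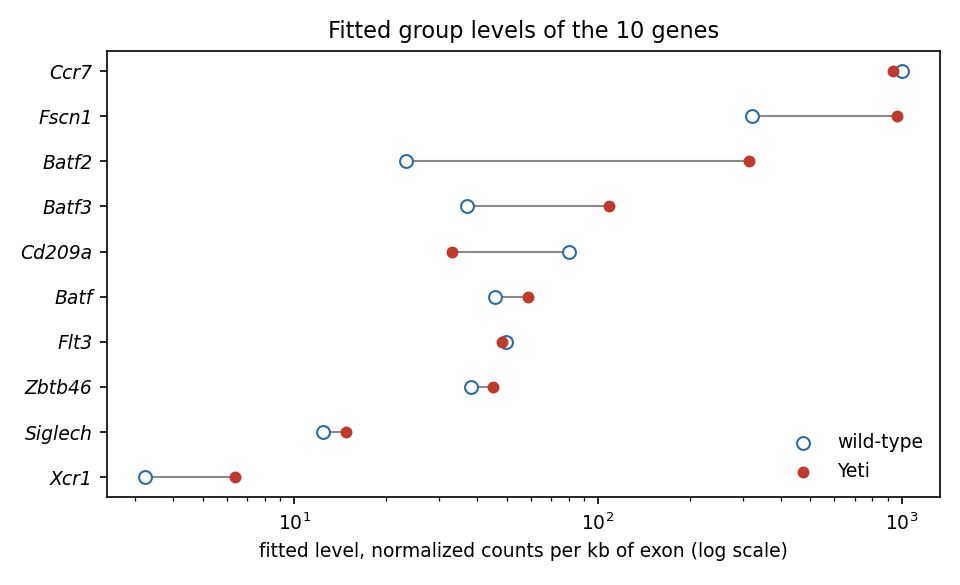
Fitted level per gene in normalized counts per kb of exon (horizontal, log scale), with open blue circles for wild-type and red circles for Yeti, each a fitted value for 3 libraries. Batf2 moved from 23.4 to 315 per kb, while Ccr7 and Flt3 had nearly coincident circles.

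The spread between libraries set what could be detected for each gene. A between-library coefficient of variation (CV) was derived from the standard error, the mean and the fold change, and its median over all tested genes was 0.207. It was 0.131 for Zbtb46, 0.172 for Batf2, 0.283 for Fscn1 and 0.294 for Batf3. For Flt3, Xcr1, Siglech and Cd209a it lay between 0.549 and 0.644, and Ccr7 stood at 0.424. At their mean counts 6 of the 10 genes lay above the 90th percentile of all tested genes, Flt3, Xcr1, Ccr7, Fscn1, Siglech and Cd209a. So did 10 of 10 pan-leukocyte markers, with values from 0.367 to 0.474. Given these errors, a gene had to change by 1.45-fold (Zbtb46) to 5.60-fold (Siglech) to pass at an adjusted p under 0.05, and Flt3 by 4.21-fold.

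**Figure D3:**
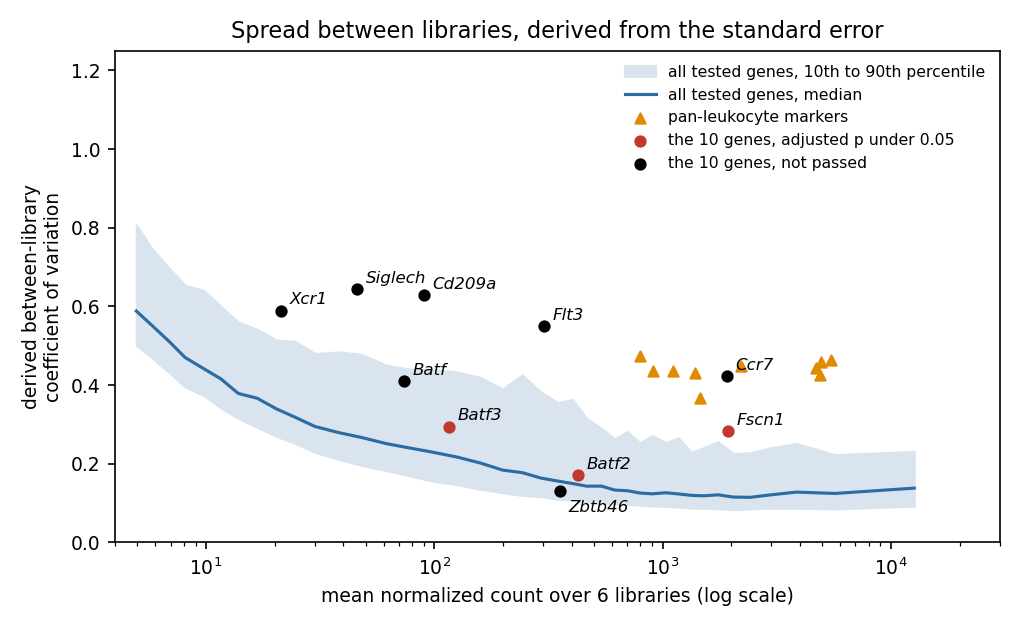
Derived between-library coefficient of variation (vertical) against mean normalized count over 6 libraries (horizontal, log scale) for the 10 genes, for 10 pan-leukocyte markers (triangles) and for all tested genes (median line and 10th to 90th percentile band). Flt3, Siglech, Cd209a, Xcr1 and Ccr7 lie above the band with the pan-leukocyte markers, Fscn1 just above it, and Batf2, Batf3, Batf and Zbtb46 within it.

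Leukocyte transcripts were present in both groups although CD45-positive cells were to be removed by the sort. Ptprc, which encodes CD45, had fitted levels of 4597 normalized counts in the wild-type libraries and 5146 in the Yeti libraries, and a log2 fold change of 0.16 ± 0.50 (SE) per the authors' deposited table. Of 10 pan-leukocyte markers 0 passed per the authors' deposited table (1 higher and 0 lower by an unadjusted p under 0.05), and their summed fitted level was 25007 in wild-type and 30759 in Yeti. None of the 10 was at 0. The macrophage and monocyte markers had a median log2 fold change of 0.60 (0 of 19 passed, 7 higher and 0 lower by an unadjusted p under 0.05), with summed levels of 16560 and 24821. Lymphocyte markers had a median of -0.88 (1 of 15 tested passed, the T cell costimulatory receptor Cd28 at -1.63 ± 0.30 per the authors' deposited table), with sums of 17152 and 8690. Endothelial markers had a median of -1.20, with 1 above 0 and 14 below, and sums of 8858 and 5362. Of the 15, 8 passed as lower per the authors' deposited table, beside 0.994% of all tested genes. They were Mmrn1 (-2.91 ± 0.26), Prox1 and Lyve1 of lymphatic vessels, with Tie1, Emcn, Cldn5, Egfl7 and Tek. The other 7 did not pass. Among them Pecam1, which encodes the sort marker CD31, was the 1 above 0, at 0.25 ± 0.46 per the authors' deposited table. Esam stood at -0.08 ± 0.41 and Sox17 at -0.03 ± 0.53, and Cdh5, Kdr, Vwf and Sox18 were further below 0. None of 12 epithelial and none of 13 mesenchymal markers passed per the authors' deposited table (0 higher and 2 lower, and 0 and 0, by an unadjusted p under 0.05). The mesenchymal markers summed to 677278 and 733554 normalized counts, so the labelled tissue had its defining genes. In bulk RNA a change in the number of cells of a type and a change in RNA per cell cannot be told apart, and the part of the shifts in these marker lists in the results for the 10 genes was not tested.

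Relative to Ptprc, only Batf2 among the 10 genes had a difference in log2 fold change whose widest interval left out 0. For Batf2 it was 3.59 (2.15 to 5.02). For Fscn1 it was 1.42 (-0.21 to 3.06) and for Batf3 1.39 (-0.31 to 3.10), so neither is separated from the change in Ptprc. Cd209a lay at -1.44 (-3.90 to 1.01) relative to Ptprc. Ptprc stands for leukocytes as a whole, while macrophage and monocyte markers had a median of 0.60 and lymphocyte markers one of -0.88. Differences from a gene of a single leukocyte type were not computed.

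The genes whose fold change came closest to those of the 3 that rose were compared over the single contrast, by the absolute difference in log2 fold change among genes that passed with a mean above 269 normalized counts. For Batf2 these were the interferon-inducible GTPase genes Igtp (3.73), Gbp4 (3.61) and Iigp1 (3.59), the activating Fc receptor gene Fcgr4 (3.82) and Smpdl3b (3.70), log2 fold changes per the authors' deposited table. The mean was taken over both groups, so a gene could clear that cut through its level in Yeti alone. Il12b, described below, was left out by its mean of 199, although at 3.67 it lay nearer to Batf2 than Gbp4 and Iigp1. For Fscn1 they were Ccl5 (1.58), H2-T22 (1.59), Mpeg1 (1.57), Psmb8 (1.61) and Rtp4 (1.56), and Batf3 shared Rtp4, Mpeg1 and Ccl5 with it, beside Ccl2 (1.54) and Fscn1, as log2 fold changes per the authors' deposited table. Ccl5 and Ccl2 are chemokines, Mpeg1 is a pore protein of macrophages and other phagocytes, and Psmb8 is an immunoproteasome subunit.

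Further dendritic cell genes were taken from 4 lists by subset. Together 5 of 49 tested genes rose and 0 fell per the authors' deposited table, with a median log2 fold change of 0.15. At an unadjusted p under 0.05, 10 were higher and 2 lower. Of these 5, 4 belonged to the list of mature, migratory cells, where 4 of 16 rose and 0 fell with a median of 0.63. Of all tested genes, 1.85% passed as higher and 0.994% as lower. The lists were chosen with earlier results of these data known, so their counts are not independent evidence about dendritic cell genes.

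In the mature list, Il12b, the shared subunit of interleukins 12 and 23, had the largest change. It rose by 3.67 ± 0.40 (SE) on the log2 scale per the authors' deposited table, from a fitted 28.9 to 369 normalized counts, adjusted p = 4.93e-17. Apol7c, an apolipoprotein L gene, rose by 2.77 ± 0.62 and Ccl22, a chemokine that draws Ccr4-bearing T cells, by 2.14 ± 0.40 per the authors' deposited table. Cacnb3, a calcium channel subunit gene, rose by 0.69 ± 0.15 per the authors' deposited table. The costimulatory genes Cd80 (0.58 ± 0.46), Cd86 (1.09 ± 0.64) and Cd40 (0.07 ± 0.23) and the maturation marker Cd83 (0.36 ± 0.57) did not pass per the authors' deposited table, nor did Socs2, the most abundant of the list, at 0.09 ± 0.11. Relative to Ptprc, the widest intervals left out 0 for Il12b (3.51, 1.74 to 5.28), Apol7c (2.60, 0.42 to 4.79) and Ccl22 (1.98, 0.21 to 3.74), and included it for Cacnb3 (0.53, -0.76 to 1.81). Macrophage and monocyte markers had a median of 0.60, with 16 above 0 and 3 below. Differences of these genes from a macrophage or monocyte gene were not computed.

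The subset lists beside it held 1 gene that passed. Among 10 type 1 genes there was none (1 higher and 0 lower at unadjusted p under 0.05). Their median was 0.18, with 7 above 0 and 3 below. Irf8, the most abundant and the one with the smallest p, stood at 0.71 ± 0.30 per the authors' deposited table. Clec9a, the dead-cell receptor of that subset, stood at 0.20 ± 0.59 per the authors' deposited table. None of 11 tested type 2 and monocyte-derived genes passed (1 higher and 2 lower by an unadjusted p under 0.05), with a median of -0.22. Of the 11, 3 were above 0 and 8 below. Klf4, the most abundant, stood at 0.26 ± 0.27, and Irf4, with the smallest p, at -1.39 ± 0.46 per the authors' deposited table. Of 12 plasmacytoid genes 1 rose and 0 fell, a share of 8.33% beside 2.84% of all tested genes. Their median was -0.10, with Tcf4, the most abundant, at -0.13 ± 0.11 per the authors' deposited table. The gene that rose was Lair1, an inhibitory collagen receptor that many leukocytes carry, at 2.75 ± 0.66 per the authors' deposited table, adjusted p = 0.00247.

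**Figure D4:**
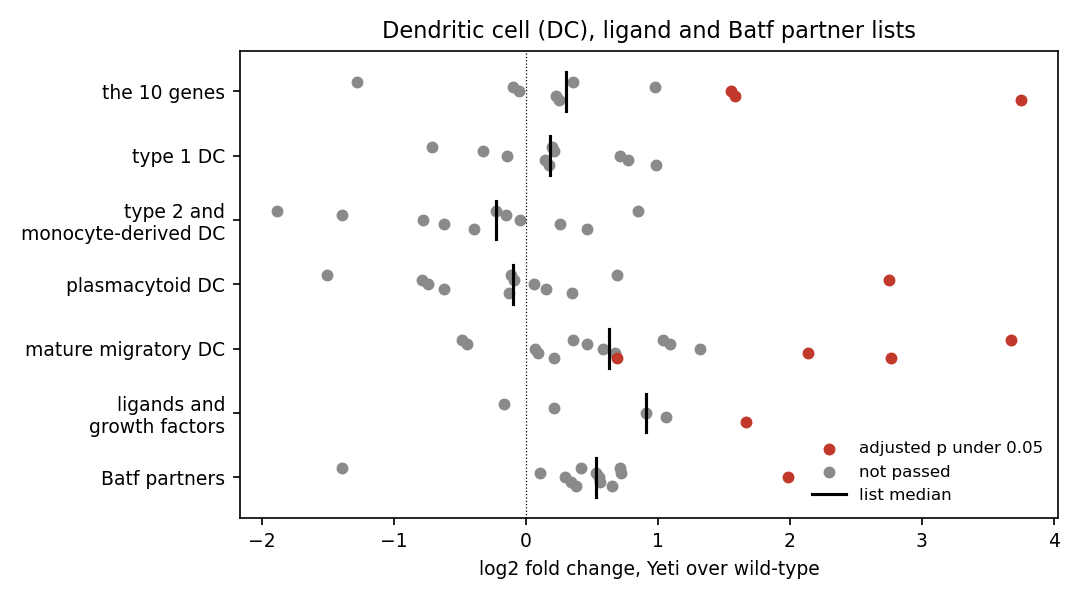
Log2 fold change of Yeti over wild-type (horizontal) for every tested gene of the 10 and of 6 further lists (rows), with red points for an adjusted p under 0.05 and black bars for list medians. The mature migratory list holds 4 red points up to 3.67, and the type 1 and type 2 lists hold none.

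Ligands of the member receptors were measured in the same libraries. Ccl19, a ligand of Ccr7 that lymphoid stroma makes, rose from a fitted 25.6 to 81.2 normalized counts, a log2 fold change of 1.67 ± 0.40 (SE) per the authors' deposited table with an adjusted p of 0.00256. Flt3l, the ligand of Flt3, stood at 0.21 ± 0.28 per the authors' deposited table with fitted levels of 3600 and 4172 normalized counts. Xcl1, the ligand of Xcr1, had a mean of 1.83 normalized counts and no adjusted p per the authors' deposited table, and Ccl21a was not analysed here. Of the 5 tested genes of this list, which were Flt3l, Ccl19, the growth factor Kitl and the receptor chains Csf2ra and Csf2rb, 1 rose and 0 fell per the authors' deposited table. Beside this, 2.84% of all tested genes passed. The receptor chain of granulocyte-macrophage colony-stimulating factor Csf2ra stood at 1.06 ± 0.42 with an adjusted p of 0.213 per the authors' deposited table.

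Of 13 factors that pair with or resemble Batf proteins, 1 rose and 0 fell per the authors' deposited table, with a median of 0.53 and 12 above 0. The share that passed was 7.69%, beside 2.84% of all tested genes. At an unadjusted p under 0.05, 7 were higher and 1 lower, with no share of all genes computed at that threshold. Irf1, an interferon-induced factor, rose by 1.98 ± 0.27 (SE) per the authors' deposited table, from a fitted 3231 to 12775 normalized counts. The partners Irf8 (0.71 ± 0.30, adjusted p = 0.273) and Irf4 (-1.39 ± 0.46, adjusted p = 0.0813) did not pass per the authors' deposited table. Their log2 fold changes nevertheless differed from each other by 2.10, with a widest interval of 0.61 to 3.59. The bZIP partners Jun (0.34 ± 0.17), Junb (0.55 ± 0.23) and Jund (0.29 ± 0.17) and Fosb, the most abundant of the list (0.41 ± 0.26), did not pass per the authors' deposited table.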

How the data were processed

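Bulk RNA-seq covered 6 libraries of lung mesenchyme, 3 Yeti+/- and 3 wild-type, which were grouped by title. FastQC, STAR and DESeq, without versions, and the builds GRCm38 and mm10 are named per the submitters' processing notes. For the read counter, strand setting and annotation, nothing is given in the sources used here. The deposited table holds the authors' DESeq2 comparison per the file headers. Its mean normalized count is a signal (counts divided by size factors, averaged over all libraries), with the log2 fold change and its standard error, a Wald score, a p-value and an adjusted p-value, all as deposited by the authors. Depth per library is unknown; the means summed to 26646632 normalized counts. The planned count model could not be fitted, since the table holds no counts, and the authors' test was used.

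Group levels, 95% intervals and the CV were derived from the mean, fold change and standard error, taking equal group sizes, with Python 3.11.15, pandas 2.3.3 and scipy 1.17.1. The authors' dispersions may be moderated across genes, and the CV inherits that. Fold and ratio errors cover the spread between libraries only as the authors' model estimates it. Of 29322 genes, 20212 had an adjusted p, which recomputation over the same genes matched within 3.91e-06. Exon lengths came from GENCODE M21, which held 29185 of the gene IDs. The 10 genes and the 12 other lists were chosen with earlier results of these data known. Genes named were the 10, all that passed in a list, each list's most abundant gene and the one with the smallest p, the receptor ligands and the 5 nearest genes in fold change; others, and fewer for the markers of other cell types, were named after their values were seen. Alternatives were 6: adjustment over every gene with a p-value, a mean of at least 10, re-centred fold changes, adjusted p under 0.1 or 0.01, and a test against a log2 fold change of 0.5. The adjustment and these settings were tested on simulated data.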

Additional observations from a re-analysis of the deposited data

How the results depend on the processing

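Of the 6 alternatives, 5 reused the deposited p-values or only subtracted the small median of all tested genes, -0.00092, from every fold change. These 5 could therefore hardly change a call or a direction among the 10 genes, and their outcome is little evidence of robustness. Under them the same 3 of the 10 genes, Batf2, Fscn1 and Batf3, passed. Over all 6 alternatives, 58 of 60 single values kept their direction and side of the threshold. The exception was the test against a log2 fold change of at least 0.5, which asks for more than any change: there 1 of the 10 genes passed (Batf2), 3 of the other dendritic cell genes in place of 5 (without Cacnb3 and Lair1), 0 genes of the ligand list in place of 1, and 5 markers of other cell types in place of 9. At that setting 170 of all tested genes passed in place of 574. At an adjusted p under 0.1, Irf4 passed in addition, as lower. This made 2 Batf partner factors in place of 1 and 6 other dendritic cell genes, 5 higher and 1 lower, in place of 5 higher. Of all tested genes, 722 passed at that threshold, 457 higher and 265 lower. At the same setting 14 markers of other cell types passed, 3 higher (Cd14, Csf1r and Fcer1g) and 11 lower, in place of 9 lower; the alternatives for those markers were chosen after seeing the data. Adjusted p ranged from 0.000191 to 0.118 for Fscn1 and from 0.00164 to 0.308 for Batf3 over these alternatives. Re-centring subtracted the median of all tested genes, -0.00092, from every fold change. No paired analysis was possible because the deposited table holds no values per library, and leaving out libraries in turn was not run for the same reason.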

Other observations

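Factors of dendritic cell development and other bZIP factors were listed after the table had been looked through. Of 13 development factors, 2 rose and 0 fell per the authors' deposited table (3 higher and 1 lower by an unadjusted p under 0.05), and their median log2 fold change was -0.03. The share that passed was 15.4%, beside 2.84% of all tested genes. Of the 13, 6 were above 0 and 7 below. Nfil3, a bZIP factor that type 1 cells need, rose by 1.13 ± 0.32 (SE, adjusted p = 0.0175) and Id2, needed by the same subset, by 0.74 ± 0.20 (adjusted p = 0.00921) per the authors' deposited table. The 1 factor lower by an unadjusted p was Zbtb32, at -1.25 ± 0.51 (adjusted p = 0.252) per the authors' deposited table. Zeb2, a factor of plasmacytoid and type 2 cells and the most abundant of the 13, stood at -0.03 ± 0.16, and Spi1, the myeloid factor PU.1, at 1.18 ± 0.56 (adjusted p = 0.454) per the authors' deposited table. In the list of 10 type 1 genes, 0 passed.

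Of 23 other bZIP factors, 1 rose and 0 fell per the authors' deposited table (3 higher and 3 lower by an unadjusted p under 0.05), with a median of 0.10. The share that passed was 4.35%, beside 2.84% of all tested genes. Cebpb was the one that rose, a factor that acts in myeloid and acute-phase responses, at 0.87 ± 0.27 (SE, adjusted p = 0.0454) per the authors' deposited table. Cebpd, the most abundant of them, stood at 0.25 ± 0.36, Atf4 at 0.05 ± 0.13 and Xbp1 at -0.05 ± 0.13 per the authors' deposited table, the latter 2 with intervals that leave out a 2-fold change.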
